A study of Mus musculus with 5 samples.

Results

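T cells recognise antigen with a receptor made of an alpha and a beta chain, and the V segment that each cell has joined into each chain is read here as RNA. The members described are the rows of the deposited count matrices whose symbol names a Trav (alpha) or Trbv (beta) V segment and that held 50 or more unique molecular identifiers (UMIs, each standing for 1 captured RNA molecule) in T cells. They are 84 segments, 62 Trav and 22 Trbv, out of 163 rows with such a symbol and 31053 rows in all. The members were chosen by their UMI total alone, and they hold 60242 of the 60749 V segment UMIs (99.2%). Of the members 3, Trbv24, Trav8-2 and Trav13-3, are annotated as pseudogenes. Of the remaining rows, 40 held no UMI and 39 held 1 to 49. Trav13-3 with 52 UMIs lies just inside the limit, and Trav6-1 with 45, Trav13d-4 and Trav20 with 44 each, Trav11n with 42 and Trav6n-5 with 40 lie just outside it.

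The study asked what regulatory T cells with ST2, the receptor for interleukin 33 encoded by Il1rl1, do after ischemic kidney injury. Kidneys of 10-week-old mice were digested after ischemia-reperfusion injury of 1 kidney, CD4 T cells were taken from the digest by flow sorting, and single-cell 3′ RNA libraries were made from them. The control group is 2 libraries from mice of genotype Il1rl1fl/fl, with loxP sites in Il1rl1. The knockout group is 3 libraries from mice of genotype Il1rl1fl/fl Foxp3YFP-Cre, which have the same floxed allele and in addition a Cre recombinase that is made where Foxp3, the lineage factor of regulatory T cells, is active. The control group lacks the Foxp3YFP-Cre allele, so its presence and the loss of Il1rl1 cannot be told apart, and whether each library is a separate animal is not given in the labels.

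A T cell here is a barcode with 500 or more detected genes and at least 1 Cd3e UMI. These were 8392 and 6372 barcodes in control libraries 1 and 2, and 3452, 7801 and 3800 in knockout libraries 1 to 3, together 29817 of 40778. Median depth was 14477 UMIs per cell in control 1 and between 4699 and 8341 in the other 4 libraries. The Foxp3 gate (at least 1 Foxp3 UMI) held 268 to 755 cells per library, the Foxp3-negative Cd4 gate (no Foxp3 UMI, at least 1 Cd4 UMI) 2775 to 6946, and the CD8 gate (at least 1 UMI of both Cd8a and Cd8b1) 59 to 321. The CD8 gate overlaps both other gates. Of its cells 49, 16, 7, 26 and 13 (in the order of libraries above) were also in the Foxp3 gate. A further 184, 39, 40, 82 and 32 were also in the Foxp3-negative Cd4 gate. Summed levels of 6 T cell markers were 3769 to 4442 CPM (counts scaled to the same library total) in gated cells, those of 6 macrophage markers 432 to 1017 CPM, with the lowest value in control 1, and those of 4 B cell markers 14.3 to 46.6 CPM.

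The targeted gene did not separate the groups in the way the labels say. Il1rl1 had 1304 and 230 UMIs in the Foxp3 gate of the control libraries and 614, 422 and 159 in that of the libraries labelled knockout, a log2 fold change of 0.16 between the groups. Over all gated cells it was at 16.9 and 14.9 CPM in the controls against 64.7, 36.8 and 28.0 in the libraries labelled knockout, higher in each of the 3 (log2 fold change 1.44, adjusted p = 0.935 in edgeR). In the Foxp3-negative Cd4 gate it was at 8.91 and 9.58 CPM against 56.5, 34.7 and 24.2, again without overlap (2.06, adjusted p = 0.833). A 3′ read may lie outside the deleted exons, in which case it checks nothing, and every direction between groups below rests on the labels. The libraries labelled knockout thus held more Il1rl1 outside the Foxp3 gate, and the difference between groups depended on the gate: the interaction term for Il1rl1 was -1.99 on the log2 scale (edgeR quasi-likelihood test, Benjamini-Hochberg adjusted p = 0.00362).

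In the thymus, RAG recombinase joins 1 V segment to a J segment (with a D segment between them in the beta chain), and the joined exon is then spliced to the constant region, Trac for alpha or Trbc1 or Trbc2 for beta. Each V segment brings its own promoter, leader and antigen-contacting loops, and the end of the V segment opens the third of these loops at a conserved cysteine. A 3′ library reads mostly the constant region, so V segment UMIs are a sparse sample of the receptor mRNA, taken from its 5′ part. Most T cells keep 1 productive beta chain, while a second alpha rearrangement is common. Cells of 1 clone share both V segments, and a few lineages have nearly fixed alpha chains: Trav11 in invariant natural killer T cells and Trav1 in mucosal-associated invariant T cells.

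The 3′ ends of the segments on which the results turn are printed below, as the last 60 bases of the annotated transcript (mm10, + strand, GENCODE M21), with the cysteine codon in capitals. The first group differed between the Foxp3 gate and the Foxp3-negative Cd4 gate, and the second group forms the most frequent alpha and beta combinations within a single library.
Trbv2: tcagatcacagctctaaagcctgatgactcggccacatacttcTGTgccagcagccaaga
Trbv13-1: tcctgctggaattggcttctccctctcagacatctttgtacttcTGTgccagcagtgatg
Trav12-2: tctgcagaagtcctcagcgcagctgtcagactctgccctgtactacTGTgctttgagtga
Trav13-1: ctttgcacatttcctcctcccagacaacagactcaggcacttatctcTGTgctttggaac
Trbv15: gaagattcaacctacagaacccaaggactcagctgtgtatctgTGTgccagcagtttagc
Trav8n-2: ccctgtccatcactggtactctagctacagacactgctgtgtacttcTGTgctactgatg
Trav9-1: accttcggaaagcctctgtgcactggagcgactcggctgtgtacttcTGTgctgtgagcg
Trbv3: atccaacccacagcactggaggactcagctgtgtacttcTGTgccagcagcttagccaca
They lie at chr6:41047936-41047995 for Trbv2, chr6:41116409-41116468 for Trbv13-1, chr14:53616855-53616914 for Trav12-2, chr14:53545466-53545525 for Trav13-1, chr6:41141599-41141658 for Trbv15, chr14:53346365-53346424 for Trav8n-2, chr14:53488508-53488567 for Trav9-1 and chr6:41048769-41048828 for Trbv3. All 8 are exonic and end at the last base of the annotated transcript. In a rearranged gene the V segment is followed by a D or J segment. Whether the annotated end is where the join can begin was not checked. Trbv3 has 18 bases after the cysteine codon, against 14 in Trbv2 and Trbv15 and 13 in Trbv13-1. A tyrosine codon (TAT or TAC), 1 further codon and a cysteine codon (TGT or TGC) were searched for in these 60 bases on the strand of the gene, and were found in 148 of the 163 rows (90.8%) and in 81 of the 84 members (96.4%). The 4 beta segments shown all read on into gccagcag, the bases of the third loop next to the cysteine.

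Alpha segments exist in several near-identical copies, and this bears on which rows could collect UMIs. The mouse alpha locus on chromosome 14 carries repeated blocks whose segments are named with d or n. The following 60-base windows from the same place in the 3 copies of Trav11 show how close they are, with capitals for bases that differ from Trav11.
Trav11: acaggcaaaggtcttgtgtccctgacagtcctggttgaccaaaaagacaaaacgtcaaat
Trav11d: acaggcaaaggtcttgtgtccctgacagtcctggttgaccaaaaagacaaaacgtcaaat
Trav11n: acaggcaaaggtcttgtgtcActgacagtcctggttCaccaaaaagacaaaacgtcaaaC
The windows are at chr14:53519697-53519756, chr14:52824751-52824810 and chr14:53135516-53135575. Over the whole transcript Trav11 and Trav11d matched at 342 of 343 aligned positions (99.7%), and Trav11 and Trav11n at 97.7%. The d rows numbered 39, of which 11 were members, with 7.95% of Trav UMIs. The n rows numbered 34, of which 10 were members, with 13.9%. The remaining 55 Trav rows gave 41 members and 78.2%. The median share of 50-base stretches that occur in no other V row was 0.347% for d rows, 0.164% for n rows and 64.6% for the other Trav rows. The 46 rows with under 10% of such stretches held 178 UMIs in all, and only Trav7d-2 among them is a member, with 108 UMIs, while its copy Trav7-2 (99.7% identity) held 0. UMIs of d and n copies are therefore uncertain in their assignment, whereas the Trbv members had a median of 100% unique stretches.

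Beta chain usage was led by 1 segment in every library. Trbv2 took 27.6% and 30.3% of Trbv UMIs in the control libraries and 23.6%, 25.3% and 19.1% in the knockout libraries, and its lowest library lies above the highest library of any other Trbv segment. It held 9718 UMIs in 3463 cells, which is 1735 UMIs per 100 bases of its transcript, against a median of 340.1 per 100 bases over the 22 Trbv members. Per length Trbv15 followed with 974.6 and Trbv13-2 with 935.9 UMIs per 100 bases, then Trbv1 with 656.6 and Trbv3 with 565.3. The order below Trbv2 changed from library to library. Trbv13-2 was at 6.92% and 12.2% of Trbv UMIs in the controls and at 10.4%, 8.70% and 12.9% in the knockouts. Trbv1 was at 5.88% and 7.71%, and at 6.09%, 12.3% and 6.36%, so that knockout 2 stands apart. Trbv3 stayed between 6.31% and 8.24%, Trbv20 between 4.30% and 6.20%, and Trbv19 between 4.73% and 6.32%. Trbv13-1 ran from 4.53% to 7.62%, Trbv26 from 2.85% to 6.86% and Trbv16 from 3.57% to 6.36%. The ranges over libraries of Trbv15, Trbv13-2, Trbv1 and Trbv3 overlap, so no order among those 4 holds beyond the spread. The 3 most abundant Trbv segments held 45.1% of the beta UMIs and the first 10 held 83.1%.

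Alpha chain usage was flatter and varied more between libraries. The 3 most abundant Trav segments held 19.5% of Trav UMIs and the first 10 held 43.5%. Trav13-1 led with 2247 UMIs (678.9 per 100 bases), at 12.6% and 3.79% of Trav UMIs in the controls against 2.85%, 7.58% and 5.14% in the knockouts. It was high in control 1 and, less so, in knockout 2. Trav3-3, with 1431 UMIs, was at 4.71% and 6.50%, and at 11.9%, 5.54% and 6.01%, with knockout 1 above the rest. Trav16n was at 5.65% in control 1 and between 1.44% and 4.13% elsewhere. Trav7-5 was at 6.87% in knockout 1 and between 2.93% and 5.07% elsewhere, and Trav14-2 at 7.68% in knockout 3 and between 2.58% and 4.29% elsewhere. Trav6-7-dv9 ran from 2.53% to 4.67%, Trav16 from 1.74% to 4.16%, Trav4-4-dv10 from 2.39% to 6.23%, Trav5-4 from 2.89% to 3.48% and Trav14-3 from 1.78% to 5.39%. Per length the Trav members ran from 14.7 to 678.9 UMIs per 100 bases with a median of 63.5, and the ranges of share over libraries of all 10 named segments overlap with those of others.

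**Figure D1:**
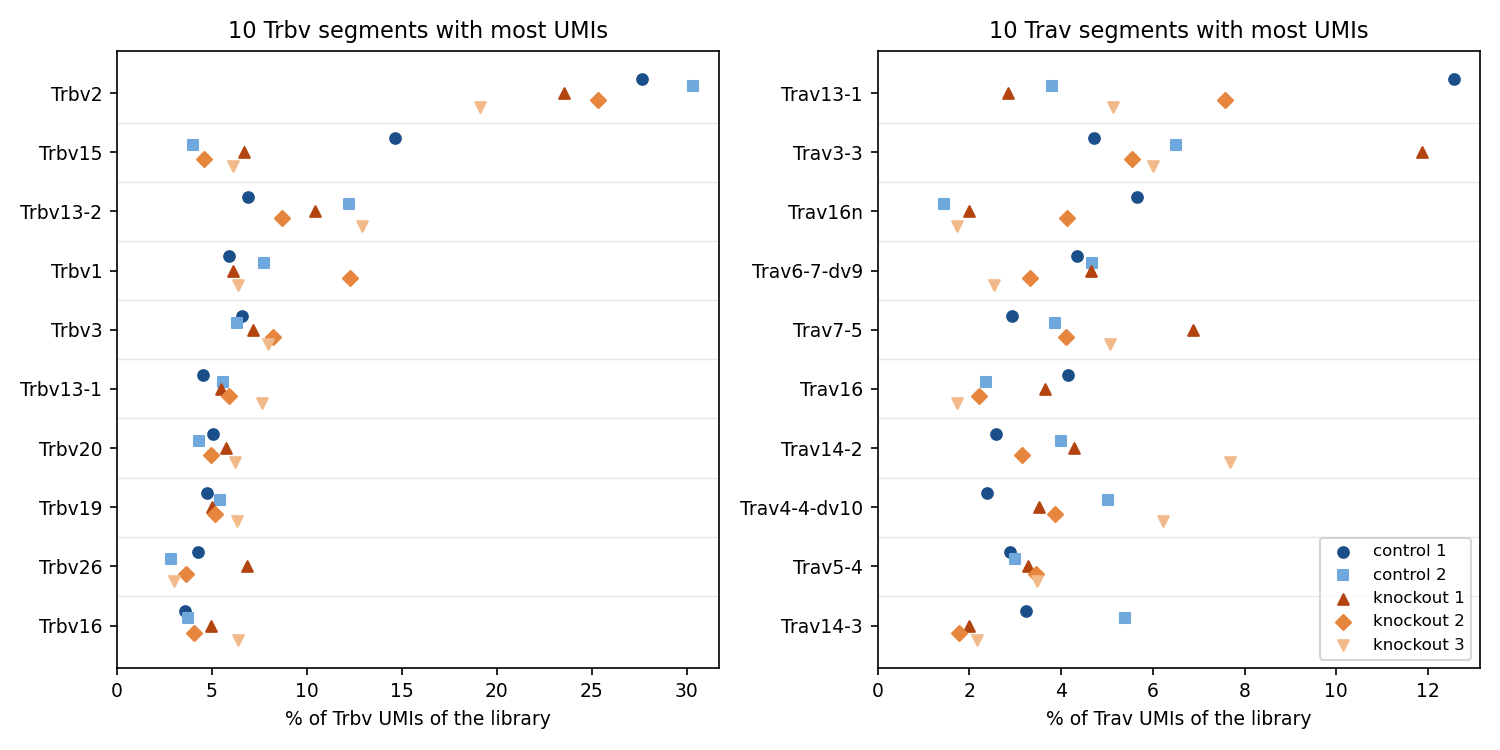
Percent of Trbv UMIs (beta segments) and of Trav UMIs (alpha segments) taken by the most abundant segments, with 1 point per library of gated T cells. Trbv2 lies between 19.1% and 30.3%, above every other beta segment, while Trbv15 at 14.6% and Trav13-1 at 12.6% stand out in control 1.

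Single libraries carried the largest departures. Of the 56 Trav and 21 Trbv members that held 50 UMIs or more also without their highest library, that library exceeded 3 times the median library in 3 Trav members and 1 Trbv member, and 2 times the median in 20 Trav and 3 Trbv members. Over all members the median of this ratio was 1.79 for Trav and 1.28 for Trbv. Trav9-1 took 8.14% of Trav UMIs in knockout 2 and 1.37% to 1.88% in the other libraries. Trav8n-2 took 2.88% in control 1, 1.08% in control 2 and 0.370% to 0.652% in the knockouts. Trbv30 took 1.03% of Trbv UMIs in knockout 1 and 0.0799% to 0.414% elsewhere. The other such member was Trav7d-2, highest in knockout 3 at 1.67%. Trav13n-3 and Trav13-3, highest in control 1 at 0.581% and 0.350%, became members only through that library (78 of 97 and 47 of 52 UMIs), so their ratio was set by the limit of 50 UMIs. Trbv15 (14.6% in control 1, 4.01% to 6.68% elsewhere) falls just short of the factor of 3. Across libraries within groups, the biological coefficient of variation estimated by edgeR had a median of 0.326 over the 78 members tested, 0.334 for Trav and 0.287 for Trbv. Genes within the same range of mean level had a median of 0.216 (8724 genes), and all 14311 genes one of 0.151.

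V segment RNA was sparse. It made up 2.19 and 1.90 of every 10000 UMIs in gated cells of the control libraries and 1.61, 2.22 and 1.45 in the knockouts. For comparison, barcodes were taken that met the gene limit of the T cell gate and held no UMI of Cd3d, Cd3e or Cd3g. These barcodes had 0.507 to 0.884 V segment UMIs per 10000, at median depths of 1428 to 2698 UMIs. At full depth 67.9% of gated cells in control 1 had a Trbv UMI, against 38.7% to 51.5% in the other libraries. After each cell was thinned to 2000 UMIs, 20.7% and 21.7% of control cells and 17.2%, 25.4% and 16.7% of knockout cells had one. For Trav the thinned shares were 16.2% and 12.0%, and 12.4%, 13.8% and 9.78%. Between 78 and 620 shallower cells per library were left out of the thinned values.

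Cells did not show 1 segment per chain in all cases. Of cells with 3 or more Trbv UMIs, 57.3% and 56.5% in the controls against 50.1%, 45.0% and 46.6% in the knockouts had UMIs of a single Trbv segment. For Trav these shares were 41.2% and 47.2%, and 37.0%, 30.1% and 36.0%. UMIs outside a cell's leading Trbv segment made up 15% to 23.4% of Trbv UMIs in these cells. When barcodes with UMIs of 2 or more of 19 markers of other cell types and the deepest 5% were left out, the single-segment share for Trbv was 57.6% to 69.3%. A V segment UMI in a cell therefore does not by itself give that cell's receptor, and the part of doublets and of free RNA in these values was not tested.

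Some alpha and beta segments were found in the same cells more often than their separate frequencies give. Each such combination met the rule given below in 1 library only. Cells with both a Trav and a Trbv UMI numbered 3597 and 840 in the controls against 805, 1439 and 427 in the knockouts. A combination was taken as frequent when at least 20 cells of a library had it and this was at least 3 times the number expected from the single segments. This rule was chosen after the data were seen, and it found 17 combinations, 11 in control 1, 2 in knockout 1, 4 in knockout 2 and none in control 2 or knockout 3. Control 1 is also the deepest library, with 73 combinations of 20 cells or more, against 1, 5, 12 and 0 in the others. The median of observed over expected cells in all combinations of that size was 1.41 and 2.92 in controls 1 and 2. In knockouts 1 and 2 it was 2.47 and 1.88, so the reference for the rule already lies above 1. With so few combinations of that size, control 2 and knockout 3 could hardly meet the rule at all. Combinations just outside the rule included Trav21-dv12 with Trbv2 in control 2 (24 cells, 2.92 times expected) and Trav14-2 with Trbv13-2 in knockout 2 (19 cells, 3.21 times expected). Others were Trav5-4 with Trbv19 (26 cells, 2.93 times) and Trav15-1-dv6-1 with Trbv16 (16 cells, 4.82 times) in control 1. The number of combinations found thus depends on both limits. Cells of the 17 combinations made up 10.4% of gated cells in control 1, 1.80% in knockout 1 and 1.82% in knockout 2. No test is given for single libraries, and the intervals below cover counting error only.

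The largest combination joined Trav13-1 and Trbv15 in control 1. It was found in 404 cells, 11.2% of the cells with both chains (95% exact Clopper-Pearson interval 10.2% to 12.3%), where 88.1 cells were expected. It accounts for 70.0% of the Trav13-1 cells and 73.6% of the Trbv15 cells among them. In control 2 and knockouts 1 to 3 the same combination was found in 2, 3, 4 and 3 cells, where 2.03, 3.00, 6.90 and 1.45 were expected. Trav13-1 was also seen with Trbv12-1 in 144 cells of control 1, of which 131 also held Trbv15. Trbv12-1 and Trbv15, 27.6 kb apart, were found together in 150 cells of this library, 5.30 times the expected number. Trav8n-2 with Trbv2 was found in 169 cells of control 1 (39.1 expected), which are 88.5% of the Trav8n-2 cells, and in 0, 2, 0 and 0 cells of the other libraries. In knockout 2 Trav9-1 with Trbv3 was found in 89 cells (25.2 expected), and in 8, 3, 3 and 2 cells of controls 1 and 2 and knockouts 1 and 3. The segments of these 3 combinations are among those printed above.

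**Figure D2:**
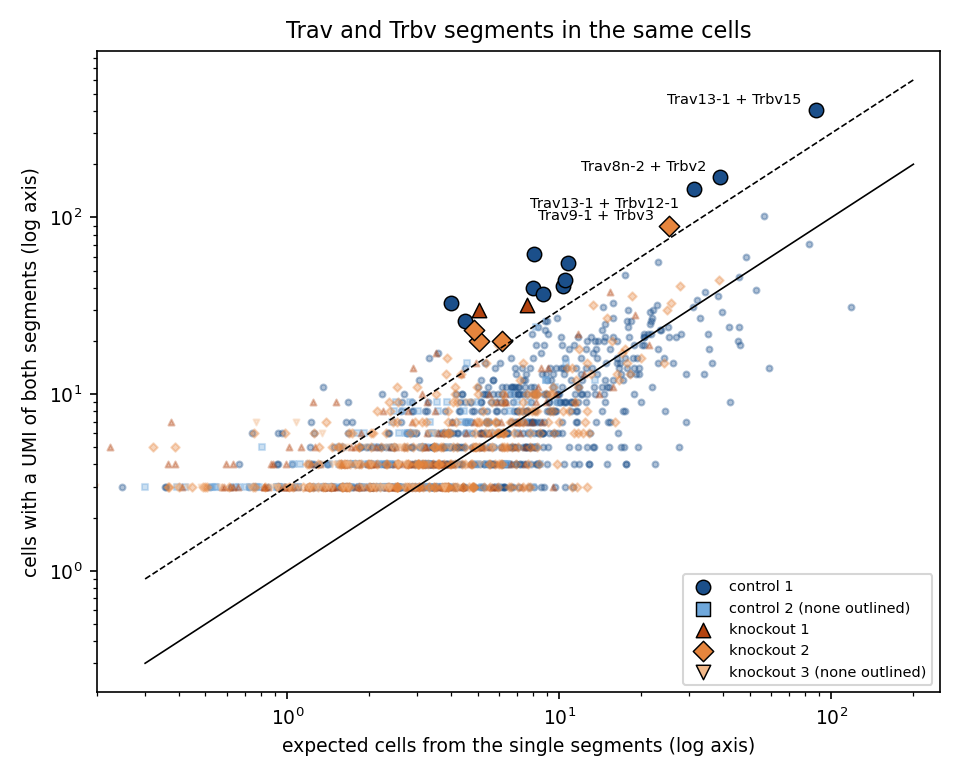
Number of cells of a library with a UMI of both segments (vertical log axis) against the number expected from the single segments (horizontal log axis), for each combination of a Trav and a Trbv member found in 3 or more cells. The solid line marks equality and the dashed line 3 times the expected number. The outlined points are the 17 combinations of the rule, led by Trav13-1 with Trbv15 in 404 cells where 88.1 were expected.

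Smaller combinations had the same form. In control 1 they were Trav13-4-dv7 with Trbv13-3 (62 cells, 8.04 expected), Trav17 with Trbv3 (55, 10.7 expected), Trav7-4 with Trbv1 (40, 8.01 expected) and Trav3-1 with Trbv1 (33, 4.00 expected). The others in that library were Trav9-2 with Trbv13-3 in 44 cells, Trav7-5 with Trbv19 in 41, Trav7-5 with Trbv13-1 in 37 and Trav9d-1 with Trbv1 in 26, of which 14 are also among the Trav3-1 cells. Knockout 1 had Trav7-5 with Trbv15 in 32 cells and Trav3-3 with Trbv29 in 30 (5.06 expected), which are 71.4% of its Trbv29 cells with both chains. Knockout 2 had Trav4-3 with Trbv13-1 in 23 cells, and Trav10 with Trbv3 and Trav14n-3 with Trbv13-1 in 20 cells each. Combinations that share a segment also share cells: 10 of the 20 Trav10 with Trbv3 cells are among the 89 with Trav9-1 and Trbv3, and 27 cells of control 1 are in both Trav7-5 combinations of that library. Trav4-3 with Trbv13-1 was also found in 8 cells of control 2, where 2.46 were expected. Trav9-2 with Trbv13-3 was found in 4 cells of control 2 (1.20 expected) and 3 of knockout 3 (0.871 expected). Trav13-1 with Trbv12-1 was found in 4 cells of knockout 1 (0.887 expected). These counts exceed 3 times the expected number but lie below the limit of 20 cells.

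The beta constant region was measured apart from the V segments and differed between these cells and their library. A rearranged beta gene uses either Trbc1 or Trbc2, so cells of 1 clone share it. In the Trav13-1 with Trbv15 cells 79.5% of Trbc UMIs were Trbc1 (exact interval 79.1% to 80.0%), against 30.7% in the other control 1 cells with both chains. In 387 of the 404 cells Trbc1 exceeded Trbc2. In the Trav8n-2 with Trbv2 cells Trbc1 made up 29.7% against 41.7% in the rest, but the rest holds the 404 cells just described. A second reference, added after the data were seen, was the 2723 control 1 cells with both chains that are in none of the combinations. Their Trbc1 share was 31.0%, from which the Trav8n-2 with Trbv2 cells hardly stand apart by UMIs. Counted by cells, Trbc2 exceeded Trbc1 in 156 of the 169 Trav8n-2 with Trbv2 cells (92.3%). This held for 64.8% of the other control 1 cells with both chains, and for 74.0% of all such cells outside the 404. In the Trav9-1 with Trbv3 cells of knockout 2 Trbc1 made up 14.5% (12.7% to 16.4%) against 30.9%. In the Trav17 with Trbv3 cells of control 1 it made up 9.91% against 41.6%, or 31.0% in cells of no combination. In the Trav3-3 with Trbv29 cells of knockout 1 the share was 15.3%, and Trbc2 exceeded Trbc1 in 30 of 30 cells. In 16 of the 17 combinations the value for the other cells of the library lay outside the interval and by 5 or more percentage points, with 6 higher and 10 lower in Trbc1. The exception was Trav14n-3 with Trbv13-1 at 28.9% against 30.0%. Against cells in no combination it was 15 of the 17, with 6 higher and 9 lower, and Trav8n-2 with Trbv2 became the second exception by UMIs. UMIs of 1 cell are not independent, so these intervals are too narrow for a comparison of cells.

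**Figure D3:**
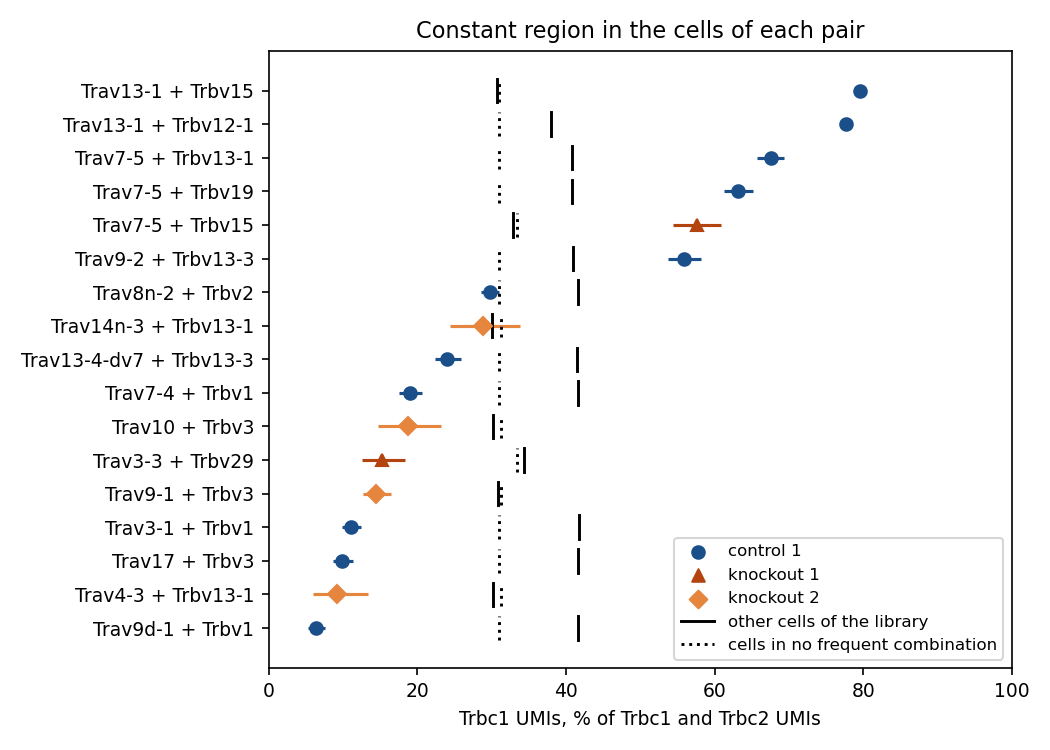
Percent of Trbc1 among Trbc1 and Trbc2 UMIs in the cells of each of the 17 frequent combinations (coloured points, with exact 95% intervals for counting error) and in the other cells of the same library with both chains (solid marks) or in those of no frequent combination (dotted marks). Trav13-1 with Trbv15 is at 79.5% against 30.7% and 31.0%, Trav17 with Trbv3 at 9.91% against 41.6% and 31.0%, and Trav8n-2 with Trbv2 at 29.7% lies by its dotted mark.

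The cells of the largest combinations also differed from the rest of their library in other genes, which were chosen after the values were seen and are given as descriptions. The other cells include those of the remaining combinations of the library. In CPM, the Trav13-1 with Trbv15 cells had 511 of Cxcr6, a chemokine receptor of tissue T cells, against 231 in the other cells with both chains. They had 1396 against 675 of Ccl5, a chemokine, 594 against 306 of the cytotoxic granule gene Nkg7 and 187 against 64.6 of Itga1, a collagen-binding integrin. Il7r, the receptor chain for interleukin 7, was at 156 against 454, and Ikzf2, a factor of regulatory T cells, at 106 against 421. Of these cells 3.96% were in the Foxp3 gate, against 11.1% of the rest. Immunoglobulin genes had 51951 UMIs in the 404 cells, but 94.6% of them were in 5 cells and the median was 6 per cell. The Trav8n-2 with Trbv2 cells had 1114 against 369 CPM of Mki67, 754 against 266 of Top2a and 2214 against 808 of Hmgb2, all genes of dividing cells.

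In knockout 2 the Trav9-1 with Trbv3 cells had 459 against 306 CPM of Cxcr6 and 380 against 573 of Mki67. The Trav3-3 with Trbv29 cells of knockout 1 had 231 against 108 CPM of Itga1 and 110 against 43.0 of Gzmb, which encodes granzyme B. The Trav4-3 with Trbv13-1 cells of knockout 2 had 253 against 15.8 CPM of Penk, the precursor of enkephalin (56 UMIs), and 20 UMIs of Klra1, a receptor known from natural killer cells, where the other cells with both chains held 2. In control 1 the Trav13-4-dv7 with Trbv13-3 cells held 155 UMIs of the delta chain segment Trdv2-2, against 137 in all other cells with both chains (101 against 1.75 CPM). These values are pooled over cells. The number of cells that held the UMIs of Penk, Klra1 and Trdv2-2 is not given here, so a few cells may carry them. The Trav17 with Trbv3 cells had 500 against 261 CPM of Cxcr6 and 163 against 415 of Mki67. Mki67 was thus above the rest in the Trav8n-2 with Trbv2 cells and below it in the Trav9-1 and the Trav17 cells.

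The comparison of the labelled groups asked whether V usage differed where Il1rl1 had been targeted in Foxp3-expressing cells. Over all gated T cells no V segment passed the threshold. Of 78 members tested, 0 were called in edgeR's quasi-likelihood test on UMI counts summed per library (adjusted p under 0.05, background 0% of 14311 genes), and 5 had an unadjusted p under 0.05 (background 5.04%). DESeq2 called 1 member, Trav14-3. The backgrounds in this and the following comparisons are those of the edgeR fit and not of DESeq2. Values of the knockout libraries lay wholly above those of the controls in 3 members (background 8.2%) and wholly below in 13 (background 9.38%). The median log2 fold change was -0.19 over the members and 0.00 over all genes tested, and 26 of the 78 were above 0 (background 51.4%). In these sums, fewer cells with a segment and less of its RNA per cell cannot be told apart.

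Trav14-3 was the member with the smallest p. It had 3.03 and 3.58 CPM in the controls against 1.41, 1.39 and 1.15 in the knockouts, and the groups do not overlap (log2 fold change -1.32 ± 0.22 SE, adjusted p = 0.881 in edgeR, 0.0132 in DESeq2). Its transcript matches Trav14-2 at 94.3% and Trav14n-3 at 91.4% of aligned positions, so UMIs may be shared among these rows. All Trav14 rows together took 13.4% and 16.3% of Trav UMIs in the controls against 11.7%, 10.9% and 19.6% in the knockouts, and there the groups overlap. Trav8n-2 had 2.70 and 0.715 CPM in the controls against 0.262, 0.375 and 0.344 in the knockouts (-2.41 ± 0.57, adjusted p = 0.935). Of the Trav8n-2 cells of control 1 with both chains 88.5% are the cells with Trbv2, and the log2 fold change was -1.0 without the cells of the 17 combinations and -1.12 without control 1. Trav6d-5 (-1.48 ± 0.47, and -0.94 without control 1) and Trbv23 (-0.71 ± 0.31) were also lower without overlap. Trav7d-2, at 0.230 and 0.159 CPM in the controls against 0.602, 0.431 and 0.880 in the knockouts, was higher without overlap (1.61 ± 0.46, adjusted p = 0.943). The same held for Trav9-4 (0.80 ± 0.33, and 0.46 without knockout 1) and Trav6-4 (0.66 ± 0.48, and 0.22 without knockout 1). The abundant segments overlapped or were carried by 1 library: Trbv2 had 35.5 and 38.8 CPM against 20.9, 35.7 and 17.5 (-0.58 ± 0.29), and Trbv15 had 18.8 and 5.14 against 5.92, 6.45 and 5.58 (-1.01 ± 0.47). Trav13-1 had 11.8 and 2.52 CPM against 2.02, 5.92 and 2.72.

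**Figure D4:**
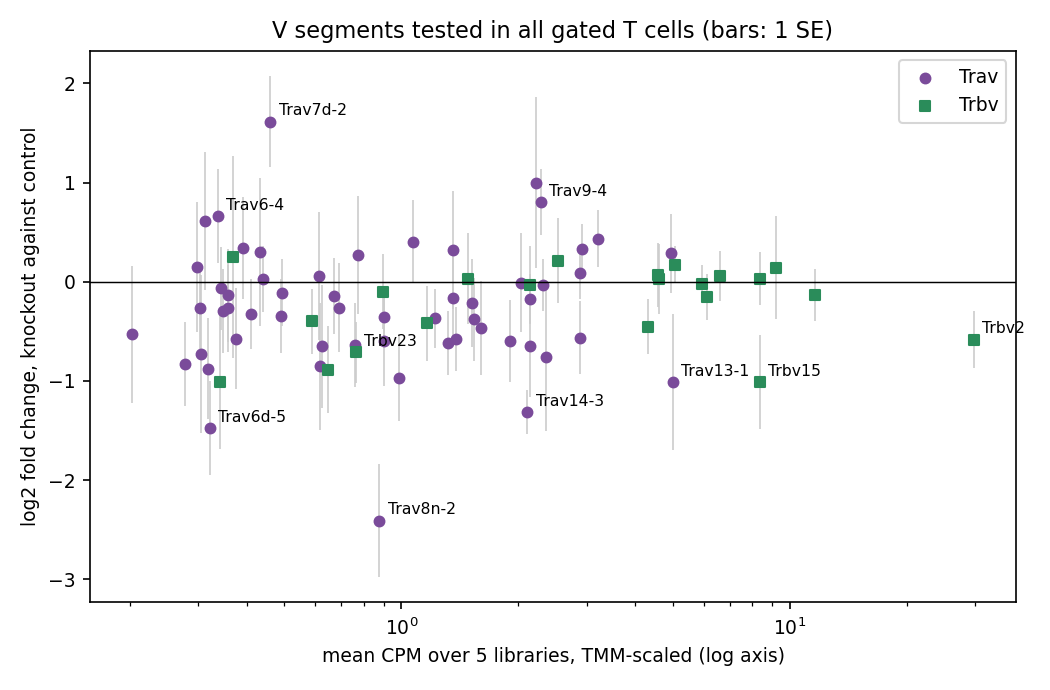
Log2 fold change of knockout over control against mean level in CPM (log axis) for the 78 V segments tested in all gated T cells, with bars of 1 SE. No segment passed an adjusted p of 0.05, and Trav14-3 at -1.32 and Trav8n-2 at -2.41 are among the lower ones.

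In the Foxp3 gate, where Cre is active, 29 members were tested and 0 were called by edgeR or DESeq2 (background 0% of 11478 genes), with 1 at an unadjusted p under 0.05 (background 6.46%). That member was Trav4-4-dv10, with 22 and 8 UMIs in the controls against 27, 28 and 22 in the knockouts. Its level was 1.27 and 1.86 CPM against 5.31, 3.37 and 6.61, higher in each of the 3 knockout libraries (1.74 ± 0.44, adjusted p = 0.510). Trav14n-3 (-0.83), Trbv3 (-0.60, and -0.32 without knockout 1) and Trav6-7-dv9 (-0.56) were lower without overlap, which makes 1 member higher (background 10.3%) and 3 lower (background 9.98%). In the Foxp3-negative Cd4 gate 71 members were tested, 0 were called by edgeR (background 0% of 13779 genes), 6 had an unadjusted p under 0.05 (background 4.88%), and DESeq2 called Trav14-3. Trav14-3 had 3.30 and 3.29 CPM in the controls against 1.26, 1.39 and 1.05 in the knockouts there (-1.40 ± 0.23, adjusted p = 0.833). In that gate 3 members were higher (background 8.3%) and 11 lower (background 9.09%) without overlap. Trav6-3 was among the higher ones, but in the stricter barcode set without the deepest cells and those with other markers its log2 fold change was -0.15. In the CD8 gate 3 members could be tested, and 0 had an unadjusted p under 0.05 (background 3.65%) or an adjusted one in edgeR or DESeq2 (background 0%). Trbv2 was at 23.7 and 32.6 CPM in the controls against 11, 22.7 and 21.2 in the knockouts there (-0.53), 1 lower (background 7.88%) and 0 higher (background 7.66%) without overlap, but the sign turned (0.50) when cells with a UMI were counted in place of UMIs.

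Whether the difference between groups itself differed between the 2 gates was tested with an interaction term. It was called for 0 of 71 members (background 0.0724% of 13821 genes, 0.0289% with a positive and 0.0434% with a negative term), with 9 at an unadjusted p under 0.05 (background 6.45%) and 0 in DESeq2. Trav4-4-dv10 had the smallest p: in the Foxp3-negative Cd4 gate it was at 2.48 and 3.83 CPM in the controls against 2.03, 3.01 and 3.08 in the knockouts (interaction 1.83 ± 0.44, adjusted p = 0.327). Trav8-2 (2.52), Trav15-1-dv6-1 (2.11) and Trav9-2 (0.97) had positive terms without overlap of the groups. Control 2 held 0 UMIs of Trav8-2 and of Trav15-1-dv6-1 in the Foxp3 gate, so the sizes of these 2 terms depend on the fit and rest on control 1: without it they were 6.83 and 7.25, against 2.20 and 1.76 without control 2. Trbv3 (-0.76 ± 0.23, adjusted p = 0.537), Trav13-2 (-1.53), Trbv31 (-0.92) and Trav9-4 (-1.10) had negative ones. Groups did not overlap in 8 members with a positive term (background 9.88%) and 8 with a negative one (background 11.5%).

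The Foxp3 gate and the Foxp3-negative Cd4 gate of the same library differed in 3 V segments. This contrast compares cells with Foxp3 RNA and other CD4 T cells from the same suspension, over 5 libraries with the library as a term. Of 54 members tested, 1 was higher (background 11.1%) and 2 were lower (background 9.02%) in the Foxp3 gate, 3 of 54 in either direction against a background of 20.1% of 12870 genes. Trbv2 was at 26.3, 21.9, 19.1, 25.6 and 10.0 CPM in the Foxp3 gate of controls 1 and 2 and knockouts 1 to 3, and at 38.7, 42.0, 21.8, 40.2 and 18.3 CPM in the Foxp3-negative Cd4 gate. It was lower in 5 of 5 libraries, with the smallest gap in knockout 1 (-0.62 ± 0.09, adjusted p = 0.00113). As a share of Trbv UMIs it was at 24.7%, 20.3%, 22.9%, 22.8% and 12.9% against 28.3%, 31.9%, 23.7%, 26.4% and 19.4%.

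Trbv13-1 was lower as well, at 3.78, 2.73, 3.86, 6.13 and 3.24 CPM in the Foxp3 gate against 6.12, 7.69, 5.14, 8.90 and 7.62 (-0.78 ± 0.16, adjusted p = 0.00573). It was lower in 5 of 5 libraries, on 67, 12, 20, 52 and 11 UMIs in the Foxp3 gate. Trav12-2 was the segment that rose, at 2.09, 2.28, 1.93, 2.48 and 1.18 CPM in the Foxp3 gate against 1.5, 1.19, 1.09, 0.877 and 0.606 (0.89 ± 0.24, adjusted p = 0.0238). It was higher in 5 of 5 libraries, on 37, 10, 10, 21 and 4 UMIs. Without the cells of the 17 combinations, the 3 calls stood (adjusted p = 0.00157 for Trbv2, 0.0183 for Trbv13-1 and 0.0356 for Trav12-2). The call of Trav12-2 was lost in DESeq2 (adjusted p = 0.056) and in edgeR without control 2 (0.0615), knockout 1 (0.0576) or knockout 2 (0.0976). When UMIs were summed over segments of the same number (subgroups), edgeR called Trbv2 (-0.62, adjusted p = 0.00121) and Trav13 (-0.55, adjusted p = 0.0377). The Trav12 and Trbv13 subgroups were not called. Relative to the total of its locus in each gate, Trbv2 remained lower (-0.30, adjusted p = 0.0361) and Trav12-2 higher (1.00, adjusted p = 0.0115), while Trbv13-1 missed the threshold (-0.45, adjusted p = 0.0763) and Trbv29 passed it (0.70, adjusted p = 0.0457). On the main scale Trbv29 was at 0.39 (adjusted p = 0.221), above 0 in 5 of 5 libraries. Trav14d-3-dv8 at -0.52 and Trav12-3 at -0.54 were below 0 in 5 of 5 libraries and did not pass. Trav12-3 and Trav12-2, which differ in direction, match at 90.7% of aligned transcript positions, and the assignment of UMIs between them was not tested. Members with 1 sign in 5 of 5 libraries were 2 above 0 (background 13.4%) and 5 below (background 15.6%).

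**Figure D5:**
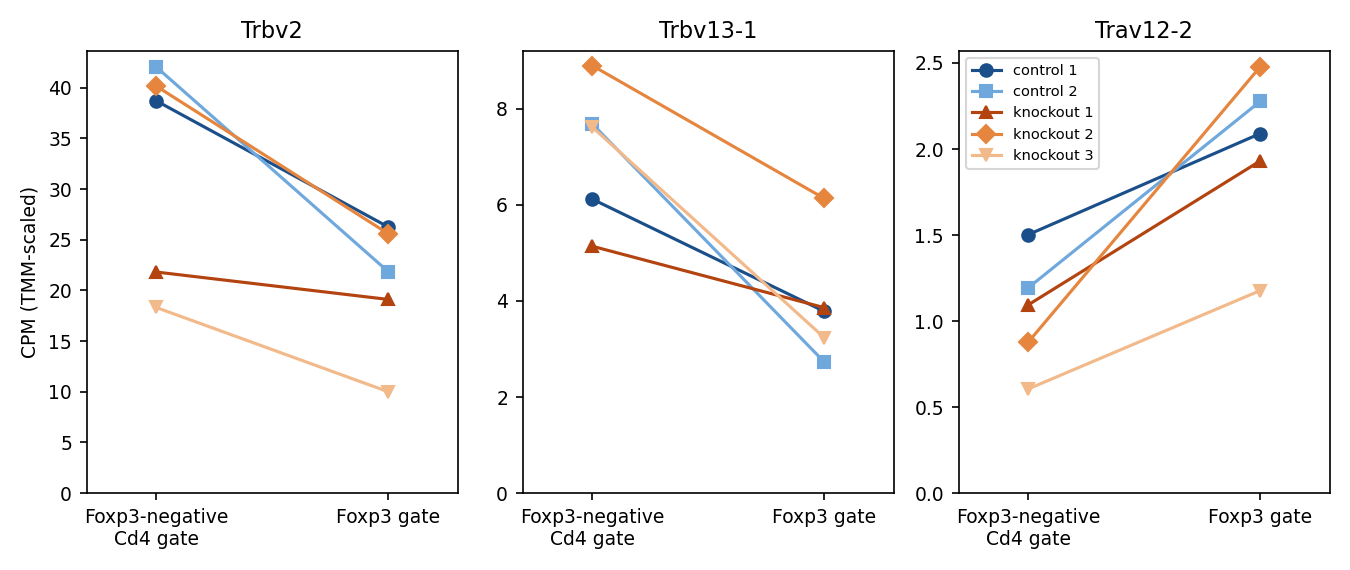
Level in CPM of V segments in the Foxp3 gate and the Foxp3-negative Cd4 gate, with a line joining the 2 gates of each library. Trbv2 and Trbv13-1 fall and Trav12-2 rises from the Foxp3-negative Cd4 gate to the Foxp3 gate in each of the 5 libraries.

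Other parts of the receptor were lower in the Foxp3 gate too, and their part in these 3 calls was not tested. Of 13 genes of the receptor complex and its proximal signalling, edgeR called 8 lower (background 9.02% of 12870 genes) and 1 higher (background 11.1%). The 8 include Cd3e and Cd4, on which gates were chosen. Trbc1 was at -0.18 (adjusted p = 0.015), Cd3e, which the gate for T cells also used, at -0.25, Cd3g at -0.12, and Cd247, the zeta chain, at -0.18. The kinases Lck and Zap70 were at -0.24 and -0.22 and the adaptor Lat at -0.25. Cd4, on which the reference gate was chosen, was at -0.54, and Cd8b1 was higher at 0.53. Trbc2 (-0.08) and Trac (-0.06) did not pass. Trbv UMIs per Trbc UMI were 0.0597 ± 0.0122 in the Foxp3 gate and 0.0686 ± 0.0172 (SD, n = 5) in the Foxp3-negative Cd4 gate, lower in 5 of 5 libraries. The two-sided exact permutation p was the smallest that 5 pairs allow, which is above 0.05, and was 0.625 after adjustment over 10 comparisons of this kind. The median depth was higher in the Foxp3 gate of every library (for example 8638 against 5239 UMIs in knockout 2).

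CD8 cells are not the target of a CD4 sort, and those found were few. After cells that also met the Foxp3-negative Cd4 definition were left out of both gates, 137, 44, 28, 75 and 27 CD8 cells remained in controls 1 and 2 and knockouts 1 to 3. Cells with a Foxp3 UMI were not left out, and they were 49, 16, 7, 26 and 13 of these. Their part in the values below was not tested. Of 40 members tested against the Foxp3-negative Cd4 gate, 2 were called lower (background 1.77%) and 0 higher (background 1.73%), 2 in either direction against 3.49% of 11933 genes. At an unadjusted p under 0.05 there were 9 members (background 11.9%), and DESeq2 called 0. Trbv2 was at 19.3, 5.29, 0, 22.6 and 22.9 CPM in the CD8 cells against 39.4, 41.7, 21.8, 40.5 and 18.2, lower in 4 of 5 libraries and not in knockout 3 (-1.15 ± 0.28, adjusted p = 0.0246). Trav14-3 had 1 UMI in the CD8 cells of the 5 libraries together against 599 in the Foxp3-negative Cd4 cells, and adjusted p was 0.0463. Its pooled level relative to depth was 0.0834 times that of the CD4 cells, with an exact counting interval of 0.00211 to 0.466. Trav9-2, Trav14d-3-dv8 and Trav6-7-dv9 were among the 4 members below 0 in 5 of 5 libraries (background 8.04%) and did not pass. In the CD8 cells, Trav9-2 and Trav14d-3-dv8 had 0 UMIs in every library but control 1, and Trav6-7-dv9 had 0 in knockouts 1 and 3. With so few cells a count of 0 gives a sign below 0 by itself, so the shared sign carries little weight. The 1 member above 0 in 5 of 5 (background 4.11%) was Trbv20, with 7.45, 5.29, 7.63, 17.8 and 9.83 CPM against 6.93, 5.18, 5.06, 6.91 and 5.99 (0.57, adjusted p = 0.599). Without control 1 no member was called, and without any of the other libraries 1 was.

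The breadth of usage was summarised by the effective number of segments, the number of equally used segments that would give the same chance that 2 UMIs drawn at random are of the same segment. For Trbv it was 8.04 and 7.5 in the controls against 10.0, 8.91 and 11 in the knockouts, 7.77 ± 0.381 (SD, n = 2) against 9.98 ± 1.06 (SD, n = 3). The groups do not overlap, but the two-sided exact permutation p was 0.2 (adjusted 0.625), in a design that cannot go below 0.1. Counted over cells with a UMI instead of UMIs the values were 13.2 and 10.4 against 12.3, 11.1 and 12.3, and the groups overlap. For Trav it was 26.2 and 33.3 in the controls against 24.3, 29.5 and 30.0 in the knockouts (exact permutation p = 0.7). Between gates, the Trbv value was above that of the Foxp3-negative Cd4 gate in 4 of 5 libraries, at 9.69, 10.0, 9.78, 9.92 and 12.8 against 7.71, 7.12, 9.97, 8.51 and 10.9 (exact permutation p = 0.125, adjusted 0.625). Trav values were 31.0 ± 3.64 against 27.7 ± 4.24 (SD, n = 5, exact permutation p = 0.25). V segment UMIs per constant region UMI were 0.133 and 0.0930 in the controls against 0.0907, 0.114 and 0.0750 in the knockouts for alpha. For beta they were 0.0793 and 0.0597, and 0.0564, 0.0897 and 0.0524, and the groups overlap for both chains.

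The alpha segments of the invariant lineages were rare. Trav11 had 6 and 2 UMIs in the controls against 2, 2 and 0 in the knockouts, and its copy Trav11d had 0 in each of the 5 libraries. Together they made up 0.0447% and 0.0798% of Trav UMIs in the controls against 0.0739%, 0.0480% and 0% in the knockouts, where 0 of 1381 UMIs in knockout 3 allows a share of up to 0.217% for these 2 rows. The third copy, Trav11n, annotated as a pseudogene, held 17 and 4 UMIs in the controls against 7, 10 and 4 in the knockouts. With it the 3 copies made up 0.171% and 0.239% of Trav UMIs against 0.333%, 0.288% and 0.290%, higher in each knockout library, with no test run on this sum and with uncertain assignment between copies. Trav1 is a member, with 60 and 9 UMIs in the controls against 12, 13 and 8 in the knockouts (-0.26, adjusted p = 1.00 in edgeR). Zbtb16, the transcription factor of innate-like T cells, had 1107 and 412 UMIs, and 256, 417 and 185 (-0.36), and Klrb1c 854 and 111, and 169, 150 and 74 (-0.42). Of the recombination genes, Rag1 and Rag2 had 0 UMIs in each of the 5 libraries. Dntt, the polymerase that adds bases at the junctions, had 159 and 65 UMIs, and 26, 17 and 14, lower in each knockout library (-1.47, adjusted p = 0.935). Gamma and delta chain genes were present at low level: Trdc had 559 and 125 UMIs, and 57, 185 and 83, and Tcrg-C1 had 318 and 129, and 680, 89 and 83, with knockout 1 highest.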

How the data were processed

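The values are UMI counts (raw, 1 matrix per library) as the authors deposited them. Their headers name Cell Ranger 8.0.0, and genome mm10 and Seurat 5.1.0 come from the submitters' processing notes. Cells were chosen only by the gates given above. Of 40599 distinct barcode sequences, 178 were found in more than 1 library. No doublet caller was run. Symbols and positions came from GENCODE M21, in which all 163 identifiers matched, and reads of the near-identical copies cannot be assigned with certainty.

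UMI counts were summed per library and gate and fitted over all genes with edgeR 4.0.16 (TMM factors, filterByExpr, quasi-likelihood test, Benjamini-Hochberg adjustment over all genes, threshold 0.05), with the library as a term for contrasts between gates. CPM were computed from these sums. DESeq2 1.42.0 was an alternative. Other tools were R 4.3.3, Python 3.11.15, numpy 2.4.6, scipy 1.17.1 and pandas 2.3.3. The p-values measure the spread between these libraries, which may be technical. The fits were tested on simulated data. Intervals and limits for a count of 0 (3 counts of the total) cover counting error only.

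Named are the 10 Trav and 10 Trbv segments with most UMIs, every member called, up to 4 members per direction and comparison with the smallest p among those without overlap, members whose highest library exceeds 3 times the median, Trav11, Trav11d, Trav1 and fixed lists (receptor complex, gamma and delta chains, recombination, innate-like T cells). The members and lists were chosen with earlier results of these data known. The rule for combinations, their state genes, the second reference for Trbc1 and 2 alternatives (without the cells of the 17 combinations, and cells in place of UMIs) were added after the data were seen. One gene described in these cells is not reported here. The other alternatives were RLE factors, no filter on low counts, an offset by the locus total, sums per subgroup, the block, barcodes under 10% mitochondrial UMIs or without deepest and other-marker barcodes, equal mean depth and leaving out each library.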

Additional observations from a re-analysis of the deposited data

Results flagged for a closer look

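For Il1rl1 the difference between the labelled groups was not the same in the Foxp3 gate and the Foxp3-negative Cd4 gate, with an interaction term of -1.99 on the log2 scale (edgeR, adjusted p = 0.00362). The libraries labelled knockout were higher than the controls by 2.06 in the Foxp3-negative Cd4 gate (adjusted p = 0.833) and by 0.16 in the Foxp3 gate. No V segment met such a criterion. Groups of 2 and 3 libraries are too small for a search for outlying samples.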

How the results depend on the processing

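Of the named segments' values under the alternatives, 495 kept their direction and side of the threshold, 20 lost it, 9 gained it and 2 reversed: Trav6-3 in the Foxp3-negative Cd4 gate was at -0.15 without the deepest and other-marker barcodes, and Trbv2 between groups in the CD8 gate was at 0.50 when cells were counted. The causes were not tested. Between groups, where edgeR called 0 members in each set of cells, DESeq2 called 1 over all gated cells and 1 in the Foxp3-negative Cd4 gate, and edgeR without a filter on low counts called 2 over all gated cells, 2 in the Foxp3 gate, 2 in the Foxp3-negative Cd4 gate and 1 for the interaction. The Foxp3 gate against the Foxp3-negative Cd4 gate gave 3 calls, 8 without the filter, 2 to 4 without 1 library and 0 with no replicate block, that is without the library term. For sums per subgroup, this contrast called Trbv2 and Trav13 only. The CD8 contrast gave 2 calls, 0 in DESeq2, with the offset by locus total, with cells in place of UMIs and with no replicate block, 1 for sums per subgroup, and 0 to 1 without 1 library. With the replicate number as a block, 0 members were called in each of the 4 comparisons of groups. The shares of all genes called under these alternatives are not given here, so these counts cannot be set against a background. The deviations of same-numbered libraries correlated at 0.113 for number 1 and -0.102 for number 2. The labels do not say whether same-numbered libraries belong together, and 2 such values cannot decide it.

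Several small differences changed sign. Trav UMIs per constant region UMI differed by -0.00183 between the Foxp3 gate and the Foxp3-negative Cd4 gate, by 0.00281 without the deepest and other-marker barcodes, and by -0.00499 to 0.00171 without 1 library. Between groups, without 1 library each, this ratio differed by -0.0392 to 0.000331, the Trbv ratio by -0.0151 to 0.00641 and the effective number of Trav segments by -5.40 to 1.76. The share of Trav11 and Trav11d differed between gates by -0.0117 to 0.0403 percentage points. Of 34 ratios of observed to expected cells of the combinations under 2 alternatives, 25 stayed within the counting interval. In cells with exactly 1 Trav and 1 Trbv segment, Trav7-5 with Trbv13-1 (2.57), Trav7-5 with Trbv19 (1.56) and Trav10 with Trbv3 (1.98) fell below 3 times the expected number.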
